A study of Rattus norvegicus with 4 samples.

Results

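The genes described here are rat chemokines that attract monocytes and other leukocytes, Ccl2, Ccl7, Ccl3, Ccl4, Ccl24 and Pf4, and the receptors Ccr1, Ccr2 and Cx3cr1. They were taken by symbol from the feature table of a droplet single-cell RNA experiment, in which 8 of the 9 named genes have a row among 30560 genes. Ccr1 has no row under its symbol, and it was not analysed here. The study set subcutaneous fascia of the abdominal midline against skin of wild-type (WT) rats, with 2 fascia libraries and 2 skin libraries. Both tissues were minced, digested with collagenase type 4, elastase and DNase I, freed of red cells and dead cells, and run on the 10x Genomics 3′ platform. No other treatment or allele is named for either tissue, and the strain, age and number of animals behind each library are not given in the sources used here. The p-values below therefore measure the spread between libraries, which may be technical.

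Chemokines are small secreted proteins that guide leukocytes along a gradient by binding receptors coupled to G proteins. CCL2 and CCL7 bind CCR2 and draw inflammatory monocytes out of the blood, and in many tissues they are induced in stroma, endothelium and macrophages by inflammatory signals through NF-kB. CCL3 and CCL4 attract monocytes and lymphocytes, and CCL3 binds CCR1. CX3CR1 binds fractalkine and marks patrolling monocytes and cytotoxic lymphocytes, CCL24 is best known as a ligand of CCR3 on eosinophils, and PF4, a CXC chemokine, is best known from platelet granules but is also made by some tissue macrophages.

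The libraries held 7697 and 7712 barcodes in fascia and 7945 and 17527 in skin, with 83852172 to 95777810 UMIs (distinct RNA molecules) per library. After filtering, 6617 and 6811 fascia cells and 7001 and 14093 skin cells were kept, and their median depth was 12701 and 10321 UMIs in fascia against 8873 and 2493 in skin. Skin replicate 2 stood apart by depth, with 41.5% of its kept cells under 2000 UMIs, and values with it left out stand beside several of the results. Any pair of libraries shared 17 to 45 cell barcodes. Each cell was assigned to a class by a gate on panels of marker genes that hold none of the genes described here. The gate placed 1023 and 991 fascia cells against 45 and 25 skin cells among macrophages, 2786 and 824 against 498 and 1335 among fibroblasts, and 575 and 931 against 201 and 185 among blood endothelial cells. Their own panels stood high in each, as the gate requires. The 11 macrophage genes summed to 33850 and 30190 counts per 1000000 UMIs (CPM) in fascia macrophages against 16070 and 15760 CPM in skin macrophages. Of the fibroblast, mural, blood endothelial, macrophage and T or NK panels, none went against its class. The gate used these panels, so this is no independent check. Cells that passed the dendritic gate were unlike in the 2 tissues: the dendritic panel summed to 825 and 1038 CPM in fascia against 9719 and 7092 CPM in skin, and the monocyte panel to 7540 and 2764 CPM in fascia against 177 and 446 CPM in skin.

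In fascia the Ccl2 and Ccl7 transcripts sat mainly in macrophages. In skin fibroblasts held the largest share of Ccl2, and the order of the other classes differed between the 2 libraries. Macrophages held 57.7% (95% exact binomial interval 57.1 to 58.2) and 59.25% (58.9 to 59.6) of all Ccl2 UMIs in the fascia libraries, against 5.11% (4.92 to 5.31) and 2.59% (2.42 to 2.76) in the skin libraries. Fibroblasts held 9.59% (9.26 to 9.92) and 4.44% (4.29 to 4.60) of the Ccl2 UMIs in fascia, against 51.1% (50.6 to 51.5) and 44.85% (44.3 to 45.4) in skin. Endothelium held 23.8% and 6.45% of the Ccl2 UMIs in skin, keratinocytes 6.91% and 23.9%, and cells without a class 3.52% and 14.1%. The intervals cover counting error only. For Ccl7, macrophages held 81.01% (80.4 to 81.6) and 87.25% (86.9 to 87.6) in fascia against 15.8% (15.02 to 16.7) and 2.24% (1.96 to 2.54) in skin. Skin endothelium held 40.0% and 15.4% of the Ccl7 UMIs, keratinocytes 23.0% and 30.7%, and fibroblasts 16.4% and 26.0%. The part of RNA from broken cells in the skin shares was not tested. Such shares follow both the number of cells in a class and the level in each cell, and the levels below are CPM of the class's own UMIs.

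**Figure D1:**
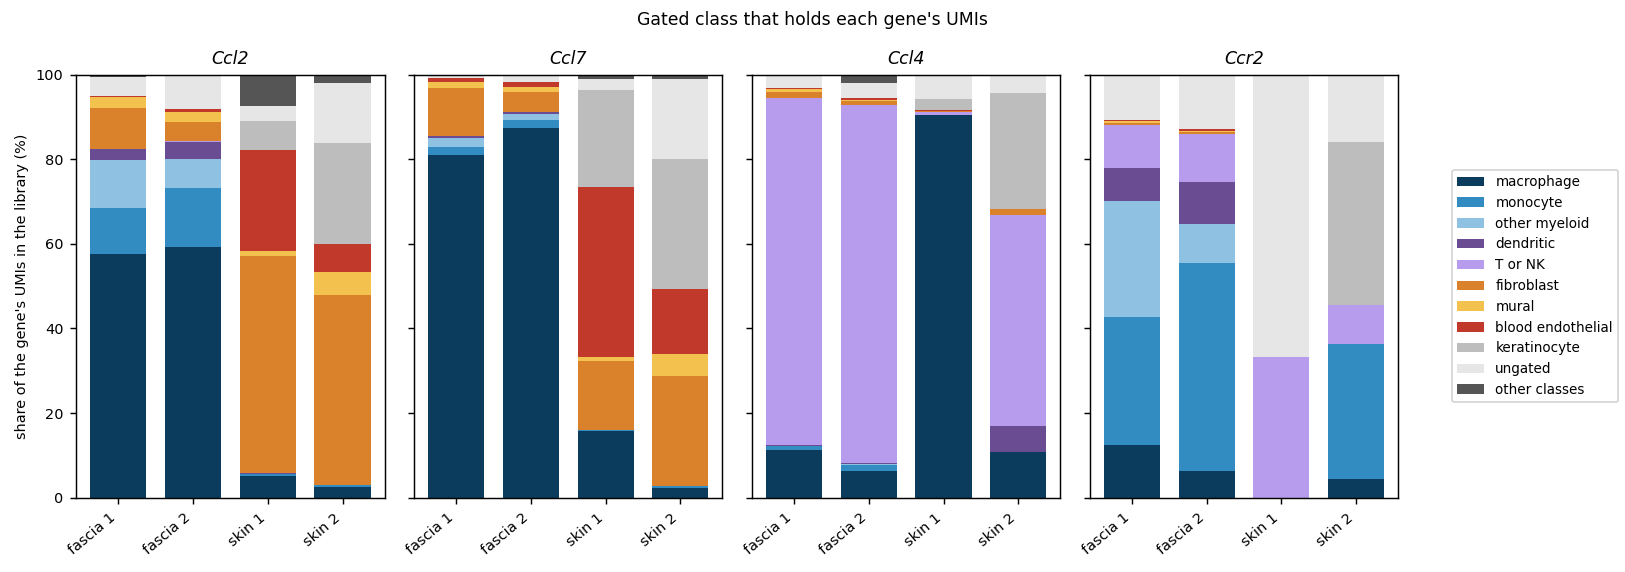
Share of the UMIs of Ccl2, Ccl7, Ccl4 and Ccr2 (vertical axis, percent of the gene's UMIs in kept cells) that each gated class holds in the fascia and skin libraries (horizontal axis). Macrophages fill 57.7% and 59.25% of the Ccl2 bar in fascia against 5.11% and 2.59% in skin, and the Ccr2 bars of skin rest on 3 and 44 UMIs.

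Ccl2 and Ccl7 lie next to each other in the rat genome (RefSeq annotation of the GRCr8 assembly), with Ccl11 and Ccl12 beyond Ccl7. The promoter of Ccl7 is shown because Ccl7, like most NF-kB genes described further down, was called lower in mural and blood endothelial cells of fascia. In fibroblasts Ccl7 was not called. The sequence is taken from RefSeq at GRCr8 chr10:67513845-67514144 on the plus strand, from 250 bases before to 50 bases after the annotated start, and is written 5′ to 3′. Capitals mark, in order, an AP-1 motif (TGANTCA), an NF-kB consensus motif read on the minus strand and a TATA box (TATAAA). Both strands were searched, and no match overlaps another.
Ccl7: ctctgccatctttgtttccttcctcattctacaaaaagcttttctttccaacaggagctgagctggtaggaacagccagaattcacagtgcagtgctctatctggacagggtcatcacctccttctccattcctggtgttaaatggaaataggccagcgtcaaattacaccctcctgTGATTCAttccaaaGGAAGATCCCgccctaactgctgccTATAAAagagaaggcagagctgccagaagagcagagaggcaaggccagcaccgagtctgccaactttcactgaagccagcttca
The first bases of these matches lie at -73, -59 and -34 from the start. Of 27457 rat promoters of the same length, 7.33% hold the AP-1 motif, 7.6% the NF-kB motif and 14.3% the TATA box, and a match is no evidence of binding.

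Fascia stroma and endothelium carried far less Ccl2 than the same classes of skin. In fibroblasts Ccl2 was at 69.0 and 253 CPM in the fascia libraries, against 4354 and 2697 CPM in the skin libraries. Both fascia libraries lay far below both skin libraries, and the log2 change was -4.67 (SE 0.80, edgeR adjusted p = 0.0257). Of 5 members with enough counts to be tested in fibroblasts, 1 rose (Ccl24) and 1 fell, where 19.2% of all 13127 genes tested were called in either direction. Without fascia replicate 1 or skin replicate 1 the Ccl2 call was lost, at changes of -4.00 and -4.12 (edgeR adjusted p = 0.0528 and 0.0549). In mural cells, the contractile cells around vessels, Ccl2 was at 57.1 and 80.4 CPM in fascia against 1610 and 1413 CPM in skin. It fell by 4.86 on the log2 scale (SE 0.29, edgeR adjusted p = 2.56e-05), among 1 member that rose and 2 that fell of 4 tested, where 17.6% of 12463 genes were called. Blood endothelial cells had Ccl2 at 16.1 and 36.8 CPM in fascia against 4822 and 1442 CPM in skin. The change was -7.39 (SE 0.92, edgeR adjusted p = 0.00536). Its fascia values lay not far above those of T or NK cells, the background class below (8.70 and 24.8 CPM), so its size is uncertain. All 4 members tested in blood endothelial cells were called, 2 higher and 2 lower, where 19.0% of 11885 genes were called. The members called higher were Ccl24 in fibroblasts, Pf4 in mural cells and both in endothelium. Each had 2 skin UMIs or fewer there and passed the count filter through fascia. Their levels are set beside free RNA further down.

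Ccl7 followed Ccl2 in the vessel classes. It stood at 18.7 and 37.0 CPM in fascia endothelium against 1214 and 1046 CPM in skin endothelium, a change of -5.78 (SE 0.48, edgeR adjusted p = 0.00246). In mural cells it was at 18.4 and 25.1 CPM in fascia against 185 and 393 CPM in skin, and fell by 4.18 (SE 0.37, edgeR adjusted p = 0.000158). Fibroblasts had 46.5 and 148 CPM of Ccl7 in fascia against 209 and 475 CPM in skin. Here the libraries did not overlap, but the change of -1.96 (SE 0.65) did not pass, at an edgeR adjusted p of 0.098. DESeq2 called it (adjusted p = 0.00633), as did the fits without the low-count filter, with doublets kept, with the replicate block and without fascia replicate 2. The members not yet named, Ccl3, Ccl4, Ccr2 and Cx3cr1, stood at 4.12 CPM or less in fibroblasts, mural and blood endothelial cells of every library, and of these Ccl4 in fibroblasts alone had enough counts to be tested (edgeR adjusted p = 0.908).

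Keratinocyte RNA was present in the stromal classes of skin. The keratinocyte panel summed to 10.1 and 20.8 CPM in fascia fibroblasts against 552 and 5936 CPM in skin fibroblasts, and to 28260 and 33240 CPM in skin keratinocytes. Keratinocytes held Ccl2 at 51.4 and 128 CPM, below all 6 values of skin stroma above. Skin replicate 2 had more keratinocyte RNA in its fibroblast gate than skin replicate 1. The endothelial and mural Ccl2 changes without it were -8.08 and -4.89, and the fibroblast change -5.08. The part of keratinocyte RNA in the Ccl2 differences was not tested.

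**Figure D2:**
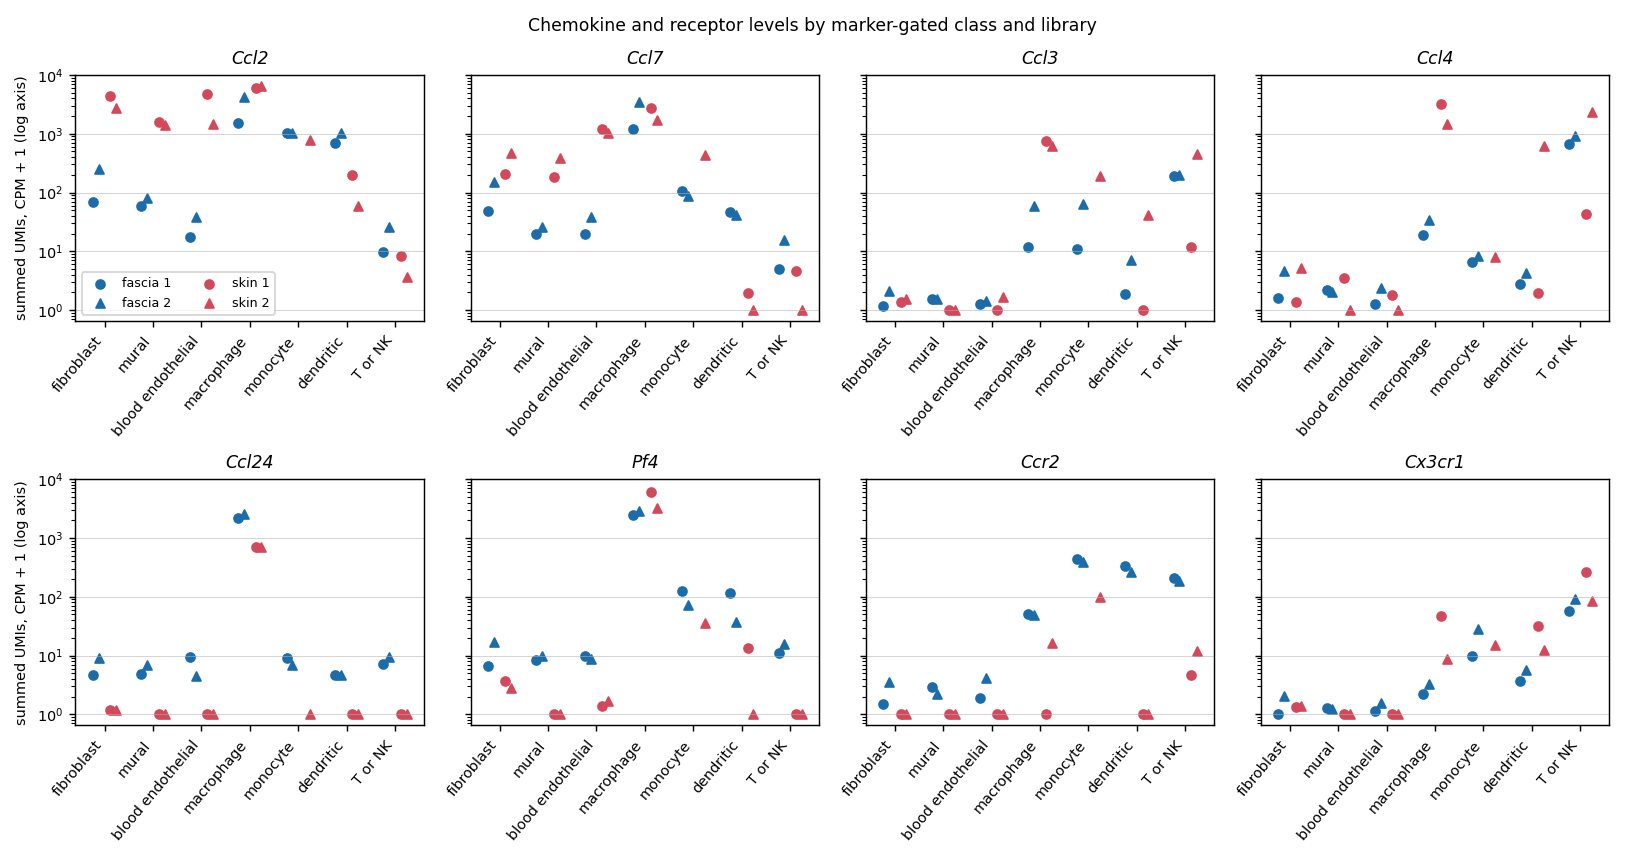
Level of each gene (vertical axis, CPM + 1 on a log axis) in 7 gated classes (horizontal axis), with a point per library and fascia (blue) left of skin (red); classes with under 20 cells in a library are not drawn. Ccl2 in fibroblasts, mural and blood endothelial cells lies at 16.1 to 253 CPM in fascia against 1413 to 4822 CPM in skin, whereas in macrophages it lies at 1513 and 4168 CPM in fascia against 6010 and 6586 CPM in skin.

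Macrophages of both tissues held Ccl2 and Ccl7 at 1202 CPM or more. Ccl2 was at 1513 and 4168 CPM in fascia macrophages against 6010 and 6586 CPM in skin macrophages. The skin libraries were higher, and the change of -1.34 (SE 0.40) passed narrowly (edgeR adjusted p = 0.0369). It did not pass with DESeq2 (adjusted p = 0.131), nor without fascia replicate 1 (a change of -0.86, edgeR adjusted p = 0.572) or either skin library (edgeR adjusted p = 0.23 and 0.105), and it was also lost at the 10% mitochondrial limit (0.0553) and under the stricter gate (0.0928). Of the 8 members tested in macrophages 2 rose and 4 fell, where 12.1% of 11104 genes were called and the median gene changed by 0.25. Ccl7 was at 1202 and 3475 CPM in fascia macrophages against 2792 and 1728 CPM in skin macrophages. The ranges overlapped and no difference was called (log2 change -0.18, SE 0.43, edgeR adjusted p = 0.837). Pooled with monocytes and weakly marked myeloid cells, skin offered 56 cells in each library. There 2 of 8 members were called, Ccl3 and Ccl4, both lower in fascia, against 3.07% of 12401 genes called and 2.43% called lower. With skin replicate 2 left out, 4 members were called, namely Ccl3, Ccl4, Pf4 (-1.98, edgeR adjusted p = 0.0173) and Ccr2 (edgeR adjusted p = 0.000918, with 0 Ccr2 UMIs in the remaining skin library). Without either fascia library 0 were called, and without skin replicate 1 Ccl3 was lost (-3.63, edgeR adjusted p = 0.0735).

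Within fascia, macrophages stood above fibroblasts and endothelium for the chemokines, and above monocytes for all but Ccl3 (-0.10, SE 0.50, edgeR adjusted p = 0.917). All 8 members were higher in macrophages than in fibroblasts, where 25.8% of 15284 genes were, and all 8 were higher than in blood endothelial cells, where 24.7% were. For Cx3cr1 this rested on 14 and 22 macrophage UMIs, and 1 cell of fascia replicate 1 held 12 of the 14. The Cx3cr1 call over endothelium (2.42, edgeR adjusted p = 0.0355) was lost at the 10% mitochondrial limit (0.0517), among cells of at least 2000 UMIs (0.055) and under the stricter gate (0.0624). For Ccl2 the difference was 4.21 (SE 0.44, edgeR adjusted p = 1.55e-05) over fibroblasts and 6.87 (SE 0.50, edgeR adjusted p = 1.39e-06) over endothelium. Against monocytes, at 1041 and 1019 CPM of Ccl2, macrophages were higher by 1.22 (SE 0.40, edgeR adjusted p = 0.0351), a call lost under the stricter gate (1.14, edgeR adjusted p = 0.0586). Ccl7 was at 104 and 86.7 CPM in monocytes and higher in macrophages, with a log2 difference of 4.403 (SE 0.51, edgeR adjusted p = 0.000111). In the comparison with monocytes 5 members were higher, where 18.5% of genes were, and the receptors Ccr2 and Cx3cr1 were lower, where 16.8% of genes were. The order of Ccl2 levels in fascia thus ran from macrophages to weakly marked myeloid cells (1565 and 3230 CPM), monocytes, cells of the dendritic gate (686 and 1035 CPM), fibroblasts, mural cells, endothelium and T or NK cells (8.70 and 24.8 CPM). Macrophages and weakly marked myeloid cells, monocytes and dendritic-gated cells, fibroblasts and mural cells, and endothelium and T or NK cells were neighbours whose library ranges overlapped.

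Free RNA from broken cells can place transcripts of an abundant class in droplets of another, so each gene's level in the stroma was divided by its macrophage level in the same library and set beside the same ratio for the macrophage panel. In fibroblasts the 11 panel genes had medians of 0.168% and 0.346% of their macrophage level in the fascia libraries, with maxima of 0.262% and 0.657%. Ccl24 (0.163% and 0.310%) and Pf4 (0.226% and 0.559%) lay inside that range, and Ccl2 (4.56% and 6.06%) and Ccl7 (3.87% and 4.27%) far above it. In mural cells the panel maxima were 0.709% and 0.924%, against 3.77% and 1.93% for Ccl2 and 1.53% and 0.721% for Ccl7. In endothelium Ccl2 stood at 1.07% and 0.884% and Ccl7 at 1.56% and 1.06%. Stab1, a scavenger receptor that endothelium also expresses, reached 6.39% and 5.26% there, and the other panel genes at most 0.676% and 0.5999% (Cd68). Ccl2 and Ccl7 thus exceeded all 11 panel genes in fibroblasts, all but Stab1 in endothelium, and in mural cells all but the highest panel gene for Ccl7 in fascia replicate 2. In T or NK cells, the background class below, Ccl2 stood at 0.575% and 0.596%, against panel maxima of 0.541% and 0.672%. Ccl7 stood at 0.33% and 0.42% there. The ratio takes macrophages alone as the source, and they held 57.7% and 59.25% of the Ccl2 UMIs in fascia. Free RNA from other classes was not measured. The panel genes are also part of the gate, which can lower their ratios, and the members are not. The size of that effect was not tested.

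**Figure D3:**
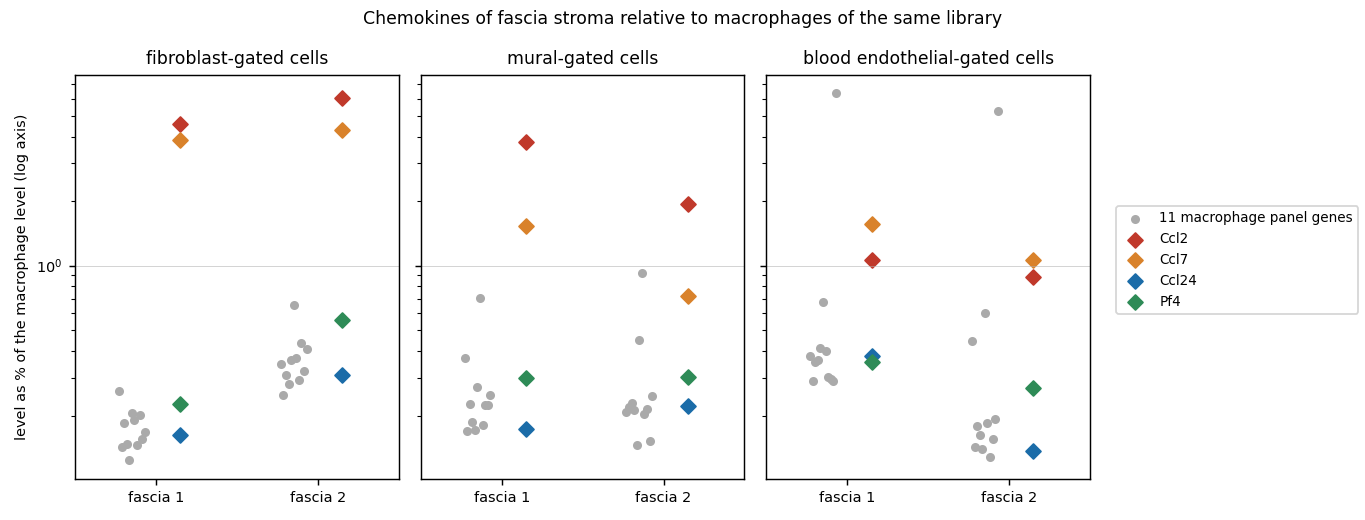
Level in fibroblast-, mural- and blood endothelial-gated fascia cells as a percentage of the macrophage level in the same library (vertical axis, log axis), for Ccl2, Ccl7, Ccl24 and Pf4 (coloured diamonds) and the 11 macrophage panel genes (grey dots), by library (horizontal axis). In fibroblasts Ccl2 lies at 4.56% and 6.06% and Ccl24 at 0.163% and 0.310%, where the grey dots end at 0.262% and 0.657%.

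The difference in stroma showed in the number of cells with a transcript as well as in the level. With every cell thinned to 2000 UMIs, Ccl2 was found in 7.63% (exact interval 6.66 to 8.69) and 15.2% (12.7 to 17.97) of fascia fibroblasts, against 43.8% (39.4 to 48.4) and 40.6% (36.9 to 44.4) of skin fibroblasts. Thinning left out 60 and 80 fascia fibroblasts against 12 and 665 skin fibroblasts, and the unthinned shares were 24.6% and 37.9% in fascia against 54.4% and 46.7% in skin. Among blood endothelial cells the thinned shares were 2.40% (1.28 to 4.07) and 5.97% (4.51 to 7.71) in fascia against 42.6% (35.6 to 49.9) and 48.4% (40.4 to 56.5) in skin. Thinning left out 33 and 26 fascia endothelial cells against 4 and 28 skin endothelial cells, with unthinned shares of 10.3% and 21.8% against 55.7% and 58.4%. T or NK cells gave the background, with 1.59% (0.436 to 4.03) and 5.04% (3.43 to 7.12) in fascia against 0% (0 to 6.98) and 1.22% (0.0309 to 6.61) in skin, at median depths of 8508 and 7185 UMIs against 5002 and 3717. The endothelial shares of fascia had intervals that overlapped this background in the same library, and they are not read as expression. Among macrophages the share was 60.6% (57.5 to 63.6) and 80.7% (78.1 to 83.2) in fascia against 80.95% (65.9 to 91.4) and 77.3% (54.6 to 92.2) in skin, and unthinned 83.7% and 89.6% in fascia against 91.1% and 72.0% in skin.

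A small part of the cells held most of the transcript in both tissues. The top 10% of cells by Ccl2 carried 84.6% and 87.04% of the Ccl2 UMIs of fascia fibroblasts, against 69.8% and 88.3% in skin fibroblasts. In skin endothelium those were 21 and 19 cells, which carried 78.1% and 70.5%. Ccl2 and Ccl7 were found in the same endothelial cells of skin: 73.8% and 81.6% of cells with Ccl2 also had Ccl7, against 22.1% and 21.0% of cells without it. In fascia macrophages Ccl7 was found in 68.5% and 85.4% of the Ccl2-positive cells and in 34.8% and 27.0% of the others. These are descriptions of cells within a library.

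Ccl3 and Ccl4, neighbours in the genome that encode the macrophage inflammatory proteins, were low in fascia macrophages and high in a few skin macrophages. Fascia macrophages had Ccl4 at 17.7 and 32.6 CPM, against 3249 and 1448 CPM in skin macrophages. The libraries were far apart, and the log2 change was -6.79 (SE 0.53, edgeR adjusted p = 7.62e-07). Ccl3 was at 11.02 and 57.6 CPM in fascia macrophages against 744 and 629 CPM in skin macrophages, and fell by 4.54 (SE 0.59, edgeR adjusted p = 0.000115). Without skin replicate 1 the Ccl3 call was lost, at -4.30 (edgeR adjusted p = 0.0508). The skin value rests on few cells: 5 of 45 macrophages held 87.9% of the Ccl4 UMIs in skin replicate 1, one of them 540 of 1393, and 3 of 25 held 84.8% in skin replicate 2. The thinned share of macrophages with Ccl4 was 3.26% (2.25 to 4.55) and 3.64% (2.55 to 5.03) in fascia against 31.0% (17.6 to 47.1) and 45.5% (24.4 to 67.8) in skin, and fibroblasts, which should lack the gene, had 0.110% and 0.538% in fascia against 0% (0 to 0.756) and 0.597% in skin. Unthinned, 15.5% and 15.8% of fascia macrophages had Ccl4 against 35.6% and 44.0% of skin macrophages.

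In fascia most Ccl4 came from T or NK cells, with 82.0% and 84.5% of its UMIs. Its level in those cells was 666 and 927 CPM in fascia against 42.8 and 2378 CPM in skin. The skin libraries lay on both sides of the fascia libraries, and no change was called (-0.78, SE 1.02, edgeR adjusted p = 0.643). The direction depended on the skin library: without skin replicate 2 the change was 4.24, and without skin replicate 1 it was -1.75. Ccl3 was at 190 and 194 CPM in fascia T or NK cells against 10.7 and 457 CPM in skin T or NK cells. Its change was 4.18 without skin replicate 2 and -1.42 without skin replicate 1. A small group of 42 neutrophils in fascia replicate 2 carried Ccl3 at 1505 CPM.

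Ccl24 was held almost wholly by macrophages in both tissues. Its promoter is shown because the levels of Ccl24 across classes lay closest to those of macrophage panel genes. The window lies at GRCr8 chr12:26737173-26737472 on the plus strand (RefSeq), placed as for Ccl7, with capitals for the PU.1 motif GAGGAAGT (first on the minus strand, then on the plus strand) and a TATA box.
Ccl24: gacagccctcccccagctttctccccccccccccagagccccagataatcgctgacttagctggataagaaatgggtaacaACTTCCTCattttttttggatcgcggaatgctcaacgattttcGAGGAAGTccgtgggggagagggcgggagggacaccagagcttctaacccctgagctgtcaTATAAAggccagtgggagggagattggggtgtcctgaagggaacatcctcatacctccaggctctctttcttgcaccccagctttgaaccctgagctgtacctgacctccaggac
The matches start at -169, -126 and -65, and 2.44% of all promoters hold the PU.1 motif. Promoters of Ccr1, Ccr2 and Cx3cr1 matched none of these motifs in the same window, and promoter sequences were found for 5 of the 9 named genes.

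Macrophages held 98.2% and 98.4% of the Ccl24 UMIs in fascia against 96.5% and 90.2% in skin. The level was 2226 and 2588 CPM in fascia macrophages against 709 and 697 CPM in skin macrophages. The libraries of a tissue lay close together, and Ccl24 rose by 1.56 (SE 0.31, edgeR adjusted p = 0.0038). The call was lost without either fascia library (edgeR adjusted p = 0.0654 and 0.142), at changes of 1.62 and 1.33. Thinned, 82.9% (80.4 to 85.2) and 81.8% (79.2 to 84.2) of fascia macrophages had Ccl24 against 38.1% (23.6 to 54.4) and 54.5% (32.2 to 75.6) of skin macrophages. Unthinned these were 90.8% and 90.0% against 75.6% and 56.0%, and the thinned share of fascia fibroblasts was 0.880% and 1.48%. Fascia monocytes had 8.15 and 5.96 CPM, and macrophages exceeded them by 8.51 (SE 0.50, edgeR adjusted p = 1.75e-06).

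Pf4 was likewise held by macrophages, with 93.7% and 93.8% of its UMIs in fascia against 89.2% and 80.7% in skin. Its level was 2452 and 2898 CPM in fascia macrophages against 6117 and 3266 CPM in skin macrophages. The ranges did not overlap, yet the change of -1.05 (SE 0.35) was not called (edgeR adjusted p = 0.0666). Without skin replicate 2 it was -1.52 (edgeR adjusted p = 0.00153), and without skin replicate 1 it was -0.40 (edgeR adjusted p = 0.308). The 8 genes of a platelet panel summed to 4.75 and 5.62 CPM in fascia macrophages against 2.33 and 0 CPM in skin macrophages, and Ppbp (beside Pf4 in the genome), Gp9, Gp1bb and Tubb1 were at 0 in macrophages of all 4 libraries. Among 62 mast cells of skin replicate 1 Pf4 reached 440 CPM, and Ccl2 reached 13780 CPM in the same cells. No library of fascia had over 2 mast cells, so mast cells were not compared between the tissues.

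Ccl24 and Pf4 were also called higher in fascia stroma than in skin stroma, at levels within the free-RNA range given above. Ccl24 in fibroblasts was at 3.62 and 8.02 CPM in fascia against 0.169 and 0.179 CPM in skin. This is a ratio of 26.4 with a counting interval of 7.23 to 219, since skin had 2 UMIs. Pf4 in blood endothelial cells was at 8.69 and 7.77 CPM in fascia against 0.402 and 0.666 CPM in skin, a ratio of 16.2 (4.42 to 135). Ccl24 in endothelium was at 8.44 and 3.52 CPM in fascia and at 0 in both skin libraries, or at least 7.28-fold higher with a floor of 3 counts over the skin group. On the same floor Pf4 was at least 4.77-fold higher in fascia mural cells and at least 2.82-fold higher in fascia T or NK cells. The macrophage panel moved with these genes, summing to 54.5 and 94.7 CPM in fascia fibroblasts against 13.9 and 14.7 CPM in skin fibroblasts, and to 147 and 79.7 CPM in fascia endothelium against 20.1 and 33.9 CPM in skin endothelium. Its part in these differences was not tested. Leaving out a library ended the Ccl24 call in fibroblasts in each of the 4 cases. The Pf4 call in endothelium was lost without either fascia library or skin replicate 1, the Pf4 call in mural cells without fascia replicate 1 or skin replicate 2, and the Ccl24 call in endothelium without either skin library. The Pf4 call in T or NK cells was lost without the count filter (edgeR adjusted p = 0.081), at the 10% mitochondrial limit (0.0586) and under the stricter gate (0.0663). DESeq2 gave it no adjusted p, and with either fascia library left out it was not among the genes tested.

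The receptor of Ccl2 and Ccl7 was found in leukocytes of fascia and almost not in skin. Ccr2 stood at 447 and 387 CPM in fascia monocytes, and at 98.6 CPM in the 28 monocytes of skin replicate 2. Skin replicate 1 had 10 monocytes, too few for a value. In T or NK cells Ccr2 was at 209 and 185 CPM in fascia against 3.57 and 10.8 CPM in skin. The 2 tissues were far apart and Ccr2 rose by 4.57 (SE 0.46, edgeR adjusted p = 0.000188). This gate takes T and NK cells together, and the part of their mix in this difference was not tested. In T or NK cells 2 of 6 members tested were called, Ccr2 and Pf4, both higher, where 14.1% of 9007 genes were called and 5.44% were higher. Macrophages had 50.2 and 47.2 CPM in fascia against 0 and 15.2 CPM in skin, a ratio of 13.7 with a counting interval of 3.78 to 113, as skin had 2 UMIs. The macrophage call was lost without skin replicate 1, at 1.57 (edgeR adjusted p = 0.336), and without fascia replicate 1, at 3.32 (edgeR adjusted p = 0.056). Thinned, 54.6% (47.7 to 61.4) and 45.9% (41.9 to 49.9) of fascia monocytes had Ccr2, against 0.183% (0.0596 to 0.427) and 0.403% (0.0832 to 1.17) of fascia fibroblasts, which should lack it. Unthinned, the monocyte shares were 90.9% and 87.6%.

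Within fascia Ccr2 ran opposite to its ligands between monocytes and macrophages. Macrophages were lower than monocytes in Ccr2 by 3.09 on the log2 scale (log2 difference -3.09, SE 0.45, edgeR adjusted p = 0.000465), while Ccl2 and Ccl7 were higher in macrophages. The weakly marked myeloid cells, 184 and 120 in fascia, had Ccr2 at 568 and 476 CPM and Ccl2 at 1565 and 3230 CPM. Whole fascia libraries held Ccr2 at 53.3 and 95.7 CPM against 0.0375 and 0.580 CPM in skin libraries, which held 3 and 44 Ccr2 UMIs.

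Cx3cr1 was a rare transcript, highest in T or NK cells. There it was at 56.1 and 89.7 CPM in fascia against 264 and 83.8 CPM in skin. Fascia replicate 2 and skin replicate 2 were alike, the ranges overlapped, and no change was called (-1.27, SE 0.42, edgeR adjusted p = 0.0704). The change was -1.81 without skin replicate 2 and -0.35 without skin replicate 1. Fascia macrophages had 1.19 and 2.25 CPM against 46.6 and 7.58 CPM in skin macrophages. The change was -4.58 (SE 0.69, edgeR adjusted p = 0.000403), and the call was lost without skin replicate 1 (-2.25, edgeR adjusted p = 0.622) and without fascia replicate 1 (-4.06, edgeR adjusted p = 0.123). The skin macrophage value is 21 UMIs, and the T or NK panel stood at 29.8 and 21.1 CPM in fascia macrophages against 222 and 7.58 CPM in skin macrophages. The part of T or NK cells in this result was not tested. Within fascia, macrophages were lower than monocytes in Cx3cr1 (-3.29, SE 0.52, edgeR adjusted p = 0.00074).

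Cells of the dendritic gate gave 4 members higher and 1 lower of 5 tested, where 29.6% of 8268 genes were called. Ccr2 stood at 332 and 265 CPM in fascia and at 0 in both skin libraries, at least 114-fold higher on the floor of 3 counts. Ccl2 was at 686 and 1035 CPM in fascia against 199 and 57.9 CPM in skin (2.55, SE 0.48, edgeR adjusted p = 0.00594). The difference ran against that of fibroblasts, mural cells and endothelium. Ccl7 was at 45.6 and 40.8 CPM in fascia against 0.975 and 0 CPM in skin, a single skin UMI, and Pf4 at 113 and 36.8 CPM against 12.7 and 0 CPM (2.76, SE 0.77, edgeR adjusted p = 0.0287). Cx3cr1 was the member that fell, at 2.68 and 4.74 CPM in fascia against 31.2 and 11.6 CPM in skin (-2.71, SE 0.58, edgeR adjusted p = 0.00977). That call was lost with DESeq2 (adjusted p = 0.0714) and without skin replicate 1 (-1.42, edgeR adjusted p = 0.602). The marker sums given above differ so much that this gate took different cells in the 2 tissues, so the values describe the cells gated and not a change within 1 cell type.

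**Figure D4:**
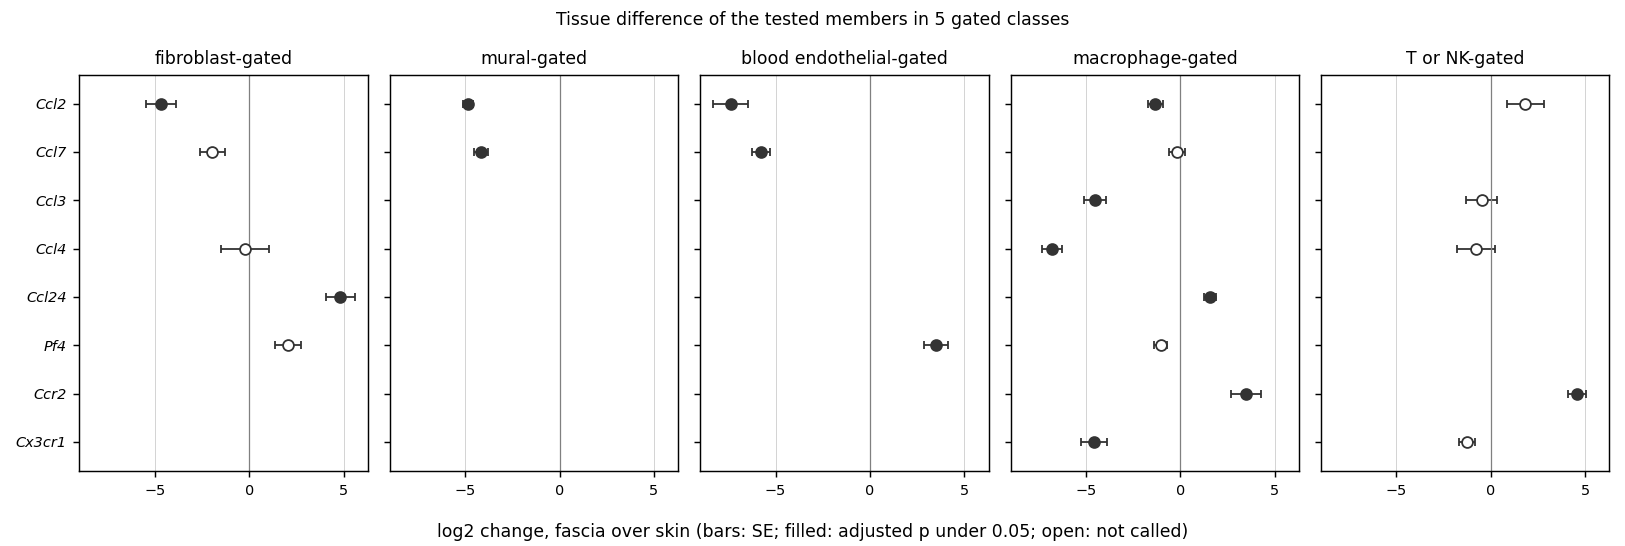
Log2 change of each tested gene, fascia over skin (horizontal axis, bars give the SE), in 5 gated classes, with filled points for edgeR adjusted p under 0.05 and open points for genes not called; genes without a UMI in skin are not drawn. Ccl2 lies at -4.67, -4.86 and -7.39 in fibroblasts, mural and blood endothelial cells against -1.34 in macrophages, and Ccr2 lies to the right of 0 in both leukocyte classes.

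Whether the tissue difference itself differed between classes was tested with an interaction. Between fibroblasts and the pooled macrophages and monocytes, 0 of 8 members passed in edgeR, where 0.181% of 14371 genes did. Before adjustment 5 of them had p under 0.05, and 4 were called by DESeq2. Ccl3 came nearest (a difference of 4.56, SE 0.56, edgeR adjusted p = 0.0536), on 20 UMIs in fascia fibroblasts and 5 in skin fibroblasts. Ccl2 was close to it, its change in fibroblasts being lower than in the pooled class by 3.42 (a difference of -3.42, SE 0.47, edgeR adjusted p = 0.0574). With macrophages alone, which was added after the data were seen, 2 of 8 members passed against fibroblasts, where 1.91% of 13892 genes did, and 5 of 8 against blood endothelium, where 5.97% of 12986 genes did. Ccl3 in both, and Ccl4 and Pf4 against endothelium, had few UMIs in the class set against macrophages. The difference for Ccl2 was -3.56 (SE 0.36, edgeR adjusted p = 0.0131) in fibroblasts and -5.84 (SE 0.63, edgeR adjusted p = 4.81e-08) in endothelium. The endothelial value takes in a fascia level near background, so its size is uncertain. Without either skin library no member passed against fibroblasts, and 2 and 3 passed against endothelium. The median gene differed by -0.50 and -0.41 in these fits, and by -0.27 and -0.12 with size factors by relative log expression.

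Genes around the pathway were read from 6 lists, beside 19.2% of all genes called in fibroblasts, 17.6% in mural cells, 19.0% in blood endothelial cells and 12.1% in macrophages. Of the 12 NF-kB feedback genes and inflammatory inducers, all tested in fibroblasts, 10 fell in fascia fibroblasts (median change -2.31, against 0.03 for all genes), 10 of 11 in mural cells (median -1.80, against 0.10) and 10 of 11 in blood endothelial cells (median -2.17, against 0.08), where Il1b was called higher. In macrophages 2 of 11 fell (median -0.55, against 0.25). Tnfaip3, which restrains NF-kB, fell by 4.78 (SE 0.79, edgeR adjusted p = 0.024) in fibroblasts. Icam1, the adhesion molecule that holds leukocytes on endothelium, fell by 4.92 (SE 0.35, edgeR adjusted p = 0.00194) in blood endothelial cells. In macrophages the members that fell were Rel (-1.54, SE 0.39, edgeR adjusted p = 0.0172) and Nfkbia (-1.17, SE 0.31, edgeR adjusted p = 0.0202).

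Genes of the immediate early and dissociation response moved in the same direction. Of 12 tested, 7 fell in fascia fibroblasts, 8 in mural cells, 9 in macrophages and 4 in blood endothelial cells, where 1 rose. Their summed level was 3434 and 6454 CPM in fascia fibroblasts against 13590 and 23760 CPM in skin fibroblasts, and 4123 and 5571 CPM in fascia macrophages against 9061 and 24740 CPM in skin macrophages. Atf3, a stress-induced transcription factor, fell in fascia fibroblasts (-3.55, SE 0.56, edgeR adjusted p = 0.0225) and in fascia macrophages (-2.93, SE 0.44, edgeR adjusted p = 0.000406). In blood endothelium the sums were 10800 and 5525 CPM in fascia against 10860 and 18960 CPM in skin. They did not overlap, though fascia replicate 1 lay close to skin replicate 1. The part of the dissociation response in the Ccl2 and Ccl7 differences was not tested.

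Among 13 other CC and CX3C chemokines with a row, 4 of 7 tested fell in fascia fibroblasts, 2 of 6 in mural cells and 2 of 4 in endothelium, and in macrophages 1 rose (Ccl17) and 2 fell (Ccl12 and Ccl27) of 5. Ccl27, a chemokine known from keratinocytes, was among the genes that fell in fibroblasts (-5.88), mural cells (-6.46), blood endothelial cells (-3.85) and macrophages (-10.96). The keratinocyte panel moved with it, at 19.9 and 14.8 CPM in fascia endothelium against 372 and 1399 CPM in skin endothelium and at 17.6 and 11.04 CPM in fascia macrophages against 644 and 1789 CPM in skin macrophages, and its part was not tested. Ccl19, which binds CCR7, fell in fascia fibroblasts (-9.02, SE 0.83, edgeR adjusted p = 0.0129). Cx3cl1, the ligand of CX3CR1, was at 47.0 and 27.7 CPM in fascia endothelium against 27.3 and 29.3 CPM in skin endothelium, ranges that overlap. In mural cells it fell by 2.65 (SE 0.53, edgeR adjusted p = 0.00898). Of 14 other receptors and scavengers, 2 of 6 rose in fascia fibroblasts, 2 of 4 fell in mural cells (Ccrl2 and Ackr3), 1 of 5 fell in endothelium (Ccrl2) and 2 of 6 fell in macrophages (Cxcr4 and Ccr6). The 2 that rose were the decoy receptors Ackr2 (2.29, SE 0.46, edgeR adjusted p = 0.0337) and Ackr3 (1.57, SE 0.22, edgeR adjusted p = 0.0192), and Cxcr4 fell in macrophages (-4.64, SE 0.35, edgeR adjusted p = 5.64e-07).

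Monocyte and macrophage growth factors were split by class. Of the 7 genes of this list, 1 of 6 tested rose and 1 fell in fascia fibroblasts, 1 of 4 rose in mural cells and 4 of 7 fell in endothelium, and in macrophages 2 rose, among them Csf1r, which the gate itself used, and 2 fell of 5. Il34, a ligand of the macrophage receptor CSF1R, was at 514 and 181 CPM in fascia fibroblasts against 50.4 and 40.1 CPM in skin fibroblasts (2.74, SE 0.57, edgeR adjusted p = 0.0366). Both fascia libraries lay above both skin libraries. Csf1, the other ligand, was at 284 and 246 CPM in fascia fibroblasts against 355 and 155 CPM in skin fibroblasts, which overlap. In macrophages Csf1 was at 11.9 and 11.04 CPM in fascia against 74.6 and 235 CPM in skin, and fell by 3.70 (SE 0.40, edgeR adjusted p = 2.24e-05). Of 14 genes of chemokine receptor signalling, 1 of 8 tested fell in fascia fibroblasts, 3 of 8 in mural cells, 1 of 8 in endothelium and 2 of 14 in macrophages, against the shares of all genes called given above. The counts in fibroblasts and endothelium were below those shares. Rgs1, which dampens chemokine receptor signals, fell in fascia macrophages by 4.88 (SE 0.37, edgeR adjusted p = 6.63e-07).

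Across 37 sums by class and library, the genes whose levels were most like those of a member among 11195 genes were ranked by Pearson's r on log2 CPM, as a description. The sums share libraries and differ in depth. Ccl2 was most like Ccl7 (r = 0.843), then Trib1 (0.742) and Ccrl2 (0.659), and Ccl3 was most like Ccl4 (0.862). Ccl24 followed the complement genes C1qc (0.962), C1qa (0.957) and C1qb (0.954), all macrophage panel genes. Pf4 was most like Asgr2 (0.91) and Cx3cr1 most like Il21r (0.899).

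Summed over all kept cells, the tissue totals hid the class pattern. Of 8 members 3 rose and 0 fell, where 38.0% of 17808 genes were called. Ccl24 stood at 302 and 332 CPM in fascia against 3.93 and 1.34 CPM in skin (6.65, SE 0.66, edgeR adjusted p = 0.00546). Pf4 was at 348 and 390 CPM in fascia against 36.7 and 7.04 CPM in skin (3.82, SE 0.85, edgeR adjusted p = 0.0271), and Ccr2 was the third. The Pf4 call was lost without fascia replicate 1 or 2 (edgeR adjusted p = 0.0722 and 0.06), and its change was 5.48 without skin replicate 1 and 3.06 without skin replicate 2. Ccl2 was at 349 and 889 CPM in fascia against 630 and 443 CPM in skin, which overlap (-0.05, SE 0.47, edgeR adjusted p = 0.94). Macrophages made up 15.5% and 14.6% of kept cells in fascia against 0.643% and 0.177% in skin, and keratinocytes 0% and 0.0294% against 81.2% and 75.9%. In such totals more cells of a class and more RNA per cell cannot be told apart.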

How the data were processed

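Droplet 3′ single-cell RNA was measured in 2 fascia and 2 skin libraries of rats. The authors deposited raw UMI counts, 1 for each gene and cell barcode. The submitters' processing notes name Cell Ranger 6.0.1, STAR and the builds mRatBN7.2 and GRCh38.p13, while the deposited matrix headers name Cell Ranger 7.0.0. The build used for these counts and whether strand was used are otherwise not given in the sources used here.

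From these counts, cells under 500 genes or over 20% mitochondrial UMIs were removed. Scrublet (Scanpy 1.11.5) marked 2.73% and 2.77% of fascia cells as doublets. It marked 0% in both skin libraries and had not worked there, so the skin cells with the highest doublet scores were removed there, 482 and 2446, a share that grew with the number of cells. A cell entered a class where the mean ln(1 + UMIs per 10000) of the class's panel was at least 0.5 and exceeded the next by 0.3, with 3 markers detected. Macrophages needed a score of 1, and dendritic cells and monocytes 2 markers, a score of 0.3 and a gap of 0.1. The gate left 267 and 518 fascia cells and 219 and 1214 skin cells without a class. These limits were set after the data were seen.

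UMIs were summed per library and class with at least 20 cells and tested with edgeR 4.0.16 (R 4.3.3) by its quasi-likelihood test, with TMM scaling, filterByExpr and Benjamini-Hochberg adjustment over all genes tested, called at 0.05. The edgeR SE is that of the log2 change. Alternatives were DESeq2 1.42.0, other size factors, no count filter, other cell filters, doublets kept, a stricter gate, a replicate block and each library left out. The tests were tried on simulated counts with known changes. Of 4-fold changes they found from 25% (interaction of fibroblasts with the pooled class) to 87% (macrophages against monocytes within fascia). The share was 55% in fibroblasts, 50% in the pooled class and 60% in macrophages. Of 16-fold changes that interaction found 65%. A gene not called is therefore not shown to be unchanged. Intervals of shares are exact 95% binomial intervals, the floor of a count of 0 is 3 UMIs over the group, and thinning used 2000 UMIs per cell. Precision is limited by 2 libraries per tissue and by 25 to 56 skin cells in the macrophage classes.

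The genes and lists were chosen with earlier results of these data known. The text names all members and, of each other list, at most 3 called genes by size of change. Other list genes were named after their values were seen. Comparisons of macrophages alone were added after seeing the data. Same-numbered libraries share only a number, since the labels name no common animal, batch or day. Some values of the lists are not reported here.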

Additional observations from a re-analysis of the deposited data

Results flagged for a closer look

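The interaction test of edgeR, with adjustment over all genes, called 5 genes in comparisons with macrophages added after seeing the data. For Ccl3 and Ccl4 the other class was near the floor, so these calls rest on the macrophage change. For Pf4 the endothelial side rests on 2 skin UMIs. Between blood endothelium and macrophages, the fascia over skin change of Ccl2 was lower in endothelium by 5.84 on the log2 scale (difference -5.84, SE 0.63, adjusted p = 4.81e-08). The changes behind it were -7.39 in endothelium, where the fascia level lay near background, and -1.34 in macrophages. For Ccl7 the difference was -5.72 (SE 0.53, adjusted p = 2.09e-09), with changes of -5.78 in endothelium and -0.18 in macrophages. These 2 calls held in each fit that left out 1 library, Ccl2 at an adjusted p of 0.0496 without skin replicate 1.

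The other differences ran in the opposite direction. Ccl4 differed by 6.95 (SE 0.94, adjusted p = 3.53e-06), Ccl3 by 4.26 (SE 1.27, adjusted p = 0.037) and Pf4 by 4.46 (SE 0.93, adjusted p = 0.0017) between endothelium and macrophages. Endothelium held 19 Ccl4 UMIs in fascia and 2 in skin, 7 and 1 Ccl3 UMIs, and 168 and 2 Pf4 UMIs. The macrophage changes were -6.79 for Ccl4, -4.54 for Ccl3 and -1.05 for Pf4, and Ccl3 and Ccl4 were too low in endothelium to be tested there alone. The Ccl3 call was lost in all 4 fits that left out 1 library, the Pf4 call in 3 and the Ccl4 call in 2.

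Between fibroblasts and macrophages Ccl2 differed by -3.56 (SE 0.36, adjusted p = 0.0131), from changes of -4.67 and -1.34. Ccl3 differed by 4.57 (SE 0.54, adjusted p = 0.0168), with 20 UMIs in fascia fibroblasts and 5 in skin fibroblasts. Neither passed without skin replicate 1 (adjusted p = 0.235 for each) or without skin replicate 2 (adjusted p = 0.0599 for Ccl2 and 0.0591 for Ccl3).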

How the results depend on the processing

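Most gene values did not change sides: of 814 values under alternatives other than leaving out a library, 742 kept direction and call, 47 gained a call, 17 lost it and 8 changed sign, and of 280 with a library left out these were 196, 27, 44 and 13. DESeq2 called 5 members over all cells, 4 in fibroblasts, 1 in T or NK cells and 4 for each fibroblast interaction. Without the count filter 5 were called in fibroblasts, 7 in pooled macrophages and monocytes, 1 in T or NK cells, and 2 and 6 in the interactions of fibroblasts with the pooled class and with macrophages. With doublets kept these were 5 in fibroblasts and 4 and 5 in the interactions. A minimum of 200 genes per cell left 1 in fibroblasts, the 10% mitochondrial limit 1 in T or NK cells, and the stricter gate 1 in T or NK cells and 1 and 4 in the interactions. Leaving out a library gave 2 to 5 members over all cells, 0 to 2 in fibroblasts, 2 to 3 in mural cells and in endothelium, 0 to 4 in the pooled class, 2 to 6 in macrophages, 5 to 6 in the dendritic gate and 1 to 5 in T or NK cells. For the interactions it gave 0 to 5 (fibroblasts with the pooled class), 0 to 6 (fibroblasts with macrophages) and 2 to 3 (endothelium). The cause was not tested.

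Sign changes were as follows. Over all cells Ccl2 ran from -0.80 to 0.45 with a library left out (0.23 without skin replicate 1), and Ccl4 from -0.185 (without fascia replicate 2) to 1.33. In fibroblasts Ccl4 was 0.05 with doublets kept, and from -1.95 to 2.25 with a library left out (0.63 without fascia replicate 1). Ccl7 ran from -1.27 to 0.25 in the pooled class and from -1.25 to 0.35 in macrophages, where it was 0.34 without skin replicate 1. In T or NK cells Ccl3 and Ccl4 were 0.091 and 0.23 under the stricter gate, and with a library left out ran from -1.42 to 4.18 and from -1.75 to 4.24. With a library left out the Ccr2 interaction ran from -7.50 to 5.22 (fibroblasts with the pooled class), -5.42 to 5.10 (fibroblasts with macrophages) and -4.74 to 5.25 (endothelium with macrophages). Under the stricter gate it was -5.04 and -5.06 in the last pair.

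Same-numbered libraries did not deviate together (correlations of -0.183 to 0.113 by class), so the replicate block is given here only: it called 4 members over all cells, 3 in fibroblasts, 3 in mural cells, 4 in endothelium, 6 in the pooled class, 6 in macrophages, 5 in the dendritic gate and 3 in T or NK cells. Under it Ccl4 in fibroblasts was 0.005, and Ccl3 and Ccl4 in T or NK cells 0.39 and 0.79. Crossing the pairs, an alternative chosen after seeing the data, gave 6004 called genes over all cells, against 5253 under the block, and 2812 against 1531 in endothelium. Over all genes, 2515 were called in fibroblasts, against 321 without fascia replicate 1, and in the pooled class were 381, 930 with DESeq2, 870 under the block and 0 without either fascia library. Size factors by relative log expression moved the median gene in macrophages to 0.16. The stricter gate left under 20 cells in the dendritic class, and leaving out a library left no residual degrees of freedom within fascia, so neither gives a value.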
